A study of Bubalus bubalis with 8 samples.

Results

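Near-constant transcripts of buffalo oocytes and parthenogenetic embryos are described here: the gene IDs whose relative level changed little from the immature oocyte to the blastocyst. They were chosen by their own values. Among numbered IDs (the word gene followed by a number), an ID was near constant when none of its 8 values was under 10 FPKM and when its log2(FPKM + 1) values spanned under 1.5 log2 units. FPKM is a fragment count scaled by transcript length and library size. The rule was met by 203 of 18220 numbered IDs (1.11%), out of 28659 IDs in the whole table.

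The study followed water buffalo (Bubalus bubalis) eggs in vitro through parthenogenetic activation, in which an oocyte is triggered to divide without sperm, and asked how transcripts of the mother change. The libraries were, in order, the GV oocyte (germinal vesicle stage, immature), the MII oocyte (arrested at the second meiotic metaphase, mature), then the 2-cell, 4-cell, 8-cell and 16-cell embryo, followed by morula and blastocyst. All 6 embryo libraries come from activated oocytes, so none carries a paternal genome, and fertilised embryos were not analysed here. There was 1 library per stage. No difference between stages therefore has a replicate error or a p-value, and every count below describes these 8 libraries.

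In a growing oocyte, transcripts are made and stored, and transcription is then largely silent through maturation and the first cleavages. Stored transcripts are removed in steps while the embryonic genome is switched on, which in cattle happens mainly around the stages of 8 to 16 cells. Transcripts that keep their level through such a period are of practical use as reference genes, against which other transcripts are scaled in quantitative PCR and in sequencing. FPKM is itself relative. It cannot tell a transcript that is constant per embryo from one that follows the total RNA, and the amount of RNA per oocyte or embryo was not measured.

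The table names no genes. None of the 28659 IDs matched an ID, symbol or accession of the RefSeq table of buffalo assembly NDDB_SH_1 (0 matches), so no gene name, function, position or sequence is given for any of them. For the same reason the oocyte, embryo and contaminating cell types could not be checked by marker genes, and it is not known whether commonly used reference genes are among the 203.

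Near constancy was uncommon even among transcripts present throughout. The 203 IDs are 7.55% of the 2688 numbered IDs that never went below 10 FPKM, themselves 14.8% of all numbered IDs. Their median range was 1.29 log2 units, with quartiles of 1.12 and 1.41, whereas the other 2485 had a median range of 3.02 log2 units (quartiles 2.34 and 4.02, highest 10.09). Of the 203, 24 (11.8%) stayed under 1 log2 unit, and 113 (55.7%) lay within 0.25 log2 units below the limit. A further 166 IDs lay within 0.25 log2 units above it. The ranges thus form 1 continuous distribution, and the limit cuts its lower tail. Of the new-gene IDs, those the authors named as new, 35 never went below 10 FPKM, and 2 of these (5.71%) met the same range, a share near that of the numbered IDs. These 2 were Bubalus_newGene_13080, at 16.5 to 34 FPKM, and Bubalus_newGene_6603, at 14.7 to 40.3 FPKM. They are named because they are so few, after their values were seen, and they do not count among the 203.

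**Figure D1:**
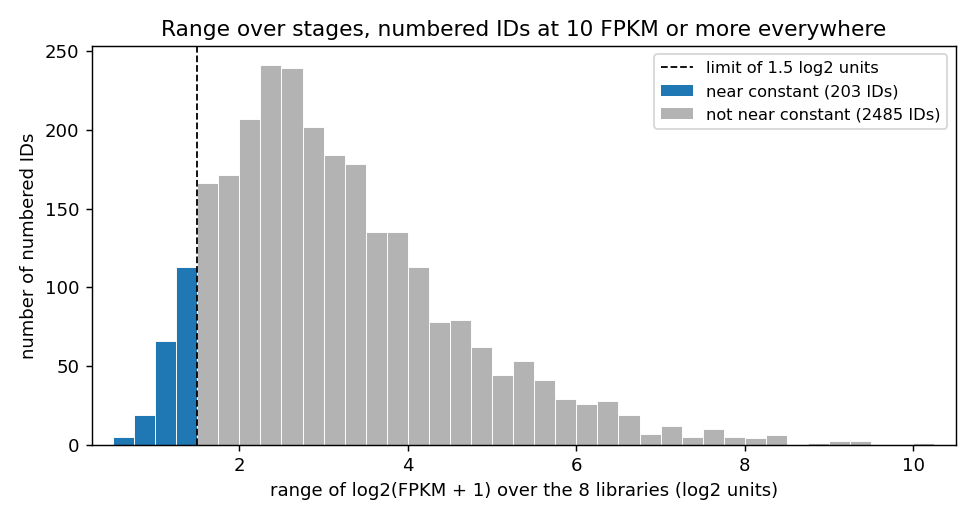
Histogram of the range of log2(FPKM + 1) over the 8 libraries for the 2688 numbered IDs that never went below 10 FPKM, in bins of 0.25 log2 units; blue bars are the 203 near-constant IDs and grey bars the other 2485. No gap separates the groups at the dashed limit of 1.5 log2 units.

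The steadiest ID was gene7686. It had 32.4 FPKM in the GV oocyte, 30.7 in the MII oocyte, 31.7 in the 2-cell, 31.5 in the 4-cell, 23.6 in the 8-cell, 23.1 in the 16-cell, 26.7 in the morula and 34.6 FPKM in the blastocyst library. The blastocyst value was the highest and the 16-cell value the lowest, with a range of 0.565 log2 units. The next was gene9868, with a range of 0.651 log2 units. Its values were 82.7 FPKM in the GV oocyte, 112 in the MII oocyte, 103 in both the 2-cell and the 4-cell embryo, 109 in the 8-cell, 71 in the 16-cell, 84.1 in the morula and 81.5 FPKM in the blastocyst library. Both IDs had their lowest value in the 16-cell library. Ranked among all numbered IDs of a library, which no scaling of that library can alter, gene7686 stayed between percentiles 77.9 and 82.4 and gene9868 between 88.2 and 92.3.

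Abundant transcripts were among the near-constant IDs too. The highest mean belonged to gene21379, with 1860 FPKM in the GV oocyte, 2794 in the MII oocyte, 2311 in the 2-cell, 4798 in the 4-cell, 4261 in the 8-cell, 3401 in the 16-cell, 3497 in the morula and 3060 FPKM in the blastocyst library. It was highest in the 4-cell and 8-cell libraries. The second was gene11618, with 2370 FPKM in the GV oocyte, 1908 in the MII oocyte, 1819 in the 2-cell, 3338 in the 4-cell, 3089 in the 8-cell, 2995 in the 16-cell, 4634 in the morula and 3027 FPKM in the blastocyst library. It was lowest at the 2-cell stage and highest in the morula, and both IDs stayed between percentiles 99.1 and 99.9 of every library. Only 5 near-constant IDs had a geometric mean of 1000 FPKM or more. The others, named after their values were seen, were gene12838 at 1535 to 4293 FPKM, gene8721 at 1909 to 4211 FPKM and gene8286 at 884 to 1935 FPKM. Of these, gene12838 and gene8721 were highest in the morula and lowest at the 16-cell stage, while gene8286 was highest at the 16-cell stage and lowest in the blastocyst.

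**Figure D2:**
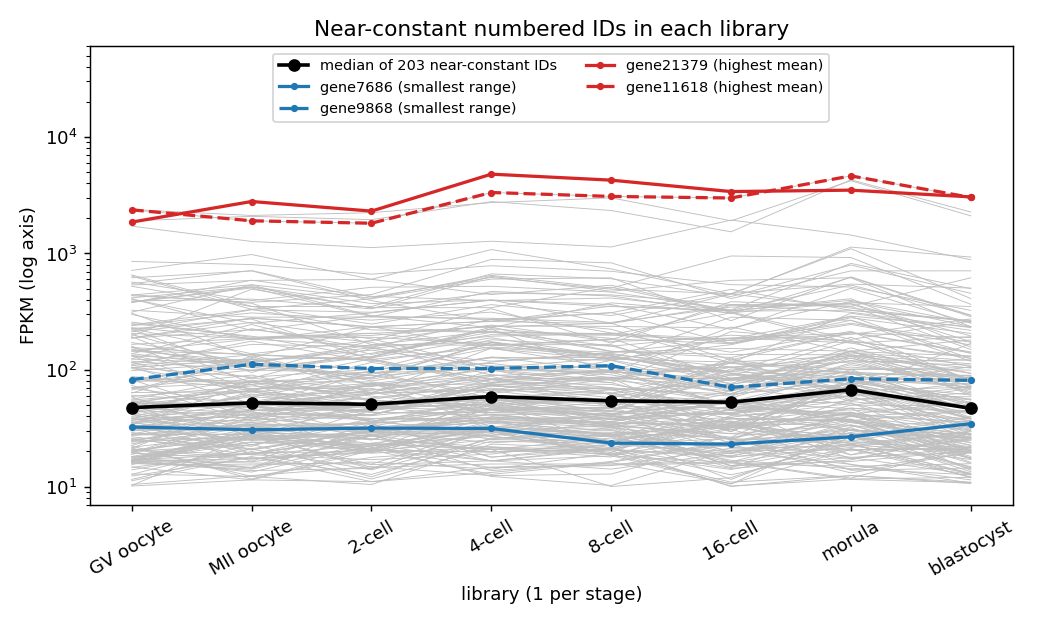
FPKM on a log axis in the 8 libraries, in order of stage, for the 203 near-constant IDs (grey lines), their median (black), the 2 IDs of smallest range (blue) and the 2 of highest mean (red). The median lies between 46.9 FPKM in the blastocyst and 67.7 FPKM in the morula, and single lines cross each other often.

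Most near-constant IDs were of moderate abundance. Their geometric mean was 10 to 30 FPKM for 59 of them, 30 to 100 FPKM for 79 (38.9%), 100 to 1000 FPKM for 60 and more for 5. Averaged over the 8 libraries, their median was 56.9 FPKM (quartiles 28.8 and 141.5), against 124.9 FPKM (quartiles 64.3 and 300.5) for the other IDs present throughout. With the 2688 IDs ranked by mean level and cut into 4 groups of 672, near-constant IDs made up 13.7% of the lowest group (92 of 672) and 5.65%, 5.51% and 5.36% of the others in rising order. The rule itself bears on this: an ID close to 10 FPKM can only be kept if it never dips, so an ID of low mean and wide range is left out of the 2688 before any range is compared. The excess in the lowest group is therefore a description and not a property read independently of the choice.

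The median near-constant ID had 47.6 FPKM in the GV oocyte, 52.2 in the MII oocyte, 50.8 in the 2-cell, 59.2 in the 4-cell, 54.4 in the 8-cell, 52.9 in the 16-cell, 67.7 in the morula and 46.9 FPKM in the blastocyst library. These levels sat at a median percentile of 83.4 to 87.1 of all numbered IDs in each library. As a share of each library's FPKM sum, however, the 203 IDs were not constant. They held 2.88% in the GV oocyte, 3.09% in the MII oocyte, 3.25% in the 2-cell, 4.16% in the 4-cell, 4.07% in the 8-cell and 2.83% in the 16-cell library, but 1.8% at the morula and 1.34% at the blastocyst stage. The FPKM sum of the whole table was 892286 to 1162574 up to the 16-cell stage, 2501133 for the morula and 2239886 for the blastocyst. FPKM is divided by transcript length, so its sum depends on which transcripts take the reads and is not a depth.

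Within the narrow range the rule allows, the near-constant IDs were most often highest in the morula (49 of 203, 24.1%) or the 4-cell embryo (37 IDs, 18.2%), and most often lowest in the blastocyst (65 IDs, 32%), the 16-cell embryo (36 IDs, 17.7%) or the GV oocyte (32 IDs, 15.8%). Of the other IDs present throughout, 29% were highest in the morula and 18.7% in the 4-cell embryo, while 25.6% were lowest in the blastocyst, 20.6% in the 16-cell embryo and 6.48% in the GV oocyte. Scaling altered these counts. After median-of-ratios scaling, which sets the typical transcript equal across libraries, 62 near-constant IDs were highest in the morula and 32 lowest in the blastocyst, and the GV oocyte was the lowest library for 45. With all libraries rescaled to the same sum, none was highest in the morula or blastocyst and 135 were lowest in the blastocyst.

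As deposited, the last of the 7 consecutive steps had the largest median difference in these IDs, but with the same sum it was -0.32 log2 units, against -0.82 for the step into the morula and -0.53 for the step into the 16-cell stage. From the morula to the blastocyst, 161 of 203 were lower and 42 higher in the blastocyst, with a median difference of -0.48 log2 units (quartiles -0.89 and -0.07). The other IDs present throughout had a median difference of -0.57. After median-of-ratios scaling 146 were lower, and after rescaling to the same sum 140. Scaled by their own offsets, which sets the typical member level by construction, 89 were lower and 114 higher. From the 16-cell embryo to the morula, 129 were higher and 74 lower in the morula (median 0.25 log2 units, against 0.58 for the other IDs), but rescaling to the same sum left 21 higher and 182 lower. From the 4-cell to the 8-cell embryo the spread over IDs was narrowest, with a median of -0.12 log2 units, quartiles of -0.33 and 0.08, and 2 of 203 IDs over 1 log2 unit apart (0.985%, against 4.55% of the other IDs).

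For 45 near-constant IDs (22.2%) the largest consecutive change came between the 8-cell and 16-cell libraries, for 47 (23.2%) that from the morula to the blastocyst, for 37 (18.2%) that from the 16-cell embryo to the morula and for 7 (3.45%) that from the 4-cell to the 8-cell embryo. Among the other IDs the step into the 16-cell stage was the largest for 41.1%, the step into the blastocyst for 13%, the step into the morula for 27.1%, and that from the 4-cell to the 8-cell embryo for 0.362%. At the step into the 16-cell stage, 26 of the 45 near-constant IDs were lower and 19 higher in the 16-cell library, and at the step into the blastocyst 45 of 47 were lower in the blastocyst.

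The later libraries (16-cell, morula and blastocyst) and the earlier ones (GV to 8-cell) differed little in the near-constant IDs, as the rule requires. The mean log2 level of the 3 later libraries minus that of the 5 earlier ones had a median of -0.03 (quartiles -0.29 and 0.22) and was positive in 96 of 203 IDs. Even so, in 6 near-constant IDs all 3 later libraries lay above all 5 earlier ones, and in 14 all 3 lay below. Of all 2688 IDs present throughout, 18.6% lay above and 21% below in this way. The rule used the same contrast, so nothing is read from the lower share. After median-of-ratios scaling there were 17 near-constant IDs above and 11 below, so the balance between the directions depends on the scaling. Stage and library are the same thing in this design, so the part of either cannot be told apart.

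Over the whole series, from the GV oocyte to the blastocyst, 118 near-constant IDs were lower and 85 higher in the blastocyst, with a median difference of -0.22 log2 units, against -0.13 for the other IDs present throughout. Scaling altered this balance: median-of-ratios scaling put 93 lower and 110 higher in the blastocyst, and the same sum put 194 lower and 9 higher. The greatest increase was of gene10765, with 44.8 FPKM in the blastocyst against 16.8 FPKM in the GV oocyte, a difference of 1.36 log2 units; its values were 30.1 FPKM in the MII oocyte, 25.1 in the 2-cell, 46.3 in the 4-cell, 47.9 in the 8-cell, 23.6 in the 16-cell and 40 FPKM in the morula library. It was thus at least as high in the 4-cell and 8-cell libraries as in the blastocyst. The second greatest was of gene25562, with 88.1 FPKM in the blastocyst against 37 FPKM in the GV oocyte (1.23 log2 units), and a peak of 106 FPKM in the morula. The greatest decrease was of gene14990, with 52.5 FPKM in the blastocyst against 146 FPKM in the GV oocyte (-1.46 log2 units); in between it had 136 FPKM in the MII oocyte, 123 in the 2-cell, 82.8 in the 4-cell, 86.8 in the 8-cell, 70 in the 16-cell and 98 FPKM in the morula library. The next was of gene11924, with 16.1 FPKM in the blastocyst against 45 FPKM in the GV oocyte (-1.43 log2 units), although it was already at 20.1 FPKM in the 2-cell library and stood at 38 FPKM in the morula. Over all 203 IDs, the widest ratio of the highest to the lowest FPKM was 2.98-fold.

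At the limit itself, gene21107 and gene25562 lay just inside with a range of 1.496 log2 units each, and gene26577 and gene12280 just outside, the second with 1.502 log2 units and gene26577 past the limit by 0.00031 log2 units. Of these, gene21107 ran between 73 FPKM (2-cell) and 208 FPKM (morula), and gene25562 between 37 FPKM (GV oocyte) and 106 FPKM (morula). Outside, gene26577 ran between 38.3 FPKM (4-cell) and 110 FPKM (MII oocyte), and gene12280 between 1326 FPKM (2-cell) and 3758 FPKM (16-cell). Nothing in these values sets the IDs inside apart from those outside.

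A ratio of a pair of IDs within a library is free of any scaling of that library. The values used here were log2(FPKM + 1), so this holds only nearly, and least for IDs of low FPKM. The SD over the 8 libraries of the log2 ratio, averaged over all partners among the near-constant IDs, had a median of 0.58 log2 units for near-constant IDs (0.45 to 0.77) and 1.10 for the other IDs present throughout (0.56 to 4.11). Of the 203 IDs with the lowest such values, 157 (77.3%) were near-constant IDs. With all 2688 IDs present throughout as partners the contrast was smaller. The median was then 1.21 log2 units for near-constant IDs (1.14 to 1.32) and 1.51 for the others (1.17 to 4.03). Of the 203 lowest values, 153 (75.4%) were of near-constant IDs. Percentile rank, which is free of scaling, picked out other IDs. The percentile of a near-constant ID varied by a median of 7.8 points over the libraries (0.8 to 15.0), against 14.6 points for the other IDs (0.2 to 33.3), but only 31 of the 203 IDs of smallest percentile range (15.3%) were near constant. Ranks are compressed at the top of a library, so abundant IDs can vary several-fold in FPKM and hardly move in rank. Both measures come from the values that chose the IDs and describe them only.

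Leaving out a library gave a reading that the choice did not use. For each library in turn, IDs were chosen as near constant over the other 7 and then read in the library left out. Choosing without the 8-cell library gave 218 IDs, of which the 203 (93.1%) stayed near constant once it was added, and choosing without the 2-cell library gave 223 (91% kept). The share kept was 79.3% of 256 IDs for the 4-cell library, 76.6% of 265 for the GV oocyte and 74.4% of 273 for the MII oocyte. It was 63.8% of 318 IDs for the morula, 53.3% of 381 for the blastocyst and 48.9% of 415 for the 16-cell library. As background, all numbered IDs with at least 10 FPKM in the same 7 libraries were within 1.5 log2 units of every one of them, and at 10 FPKM or more, in 21.1% of cases for the 8-cell, 24.3% for the 2-cell, 18.1% for the 4-cell, 20.6% for the GV, 20.3% for the MII, 19.7% for the morula, 17.8% for the blastocyst and 16.5% for the 16-cell library. The IDs kept are the same 203 each time by construction, and the background contains the chosen IDs. It is the lower in part because an ID that already varies widely over the 7 libraries cannot be within the limit of all of them. Of the 415 IDs chosen without the 16-cell library, 54 were under 10 FPKM in it, and of the 381 chosen without the blastocyst library, 40. IDs of the background went under 10 FPKM too. Of its 2949 IDs for the 16-cell library and 2934 for the blastocyst library, 2688 stayed at 10 FPKM or more in the library left out.

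The deviation of the left-out library from the mean of all 8 needs no such limit. It still depends on the other 7 libraries through that mean, and the chosen IDs were picked for varying little over them. Its interquartile range over the chosen IDs was 0.50 log2 units for the 2-cell, 0.52 for the 8-cell, 0.68 for the 4-cell, 0.80 for the GV, 0.89 for the morula, 0.92 for the MII, 1.08 for the blastocyst and 1.47 for the 16-cell library. Over all numbered IDs at 10 FPKM or more in the other 7 libraries it was 1.07 log2 units (GV) to 2.18 (blastocyst), and wider than that of the chosen IDs for each of the 8 libraries. The narrower spread of the chosen IDs is thus not free of the choice. In the 16-cell library, where the chosen IDs spread most (1.47), it was 1.90 log2 units.

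**Figure D3:**
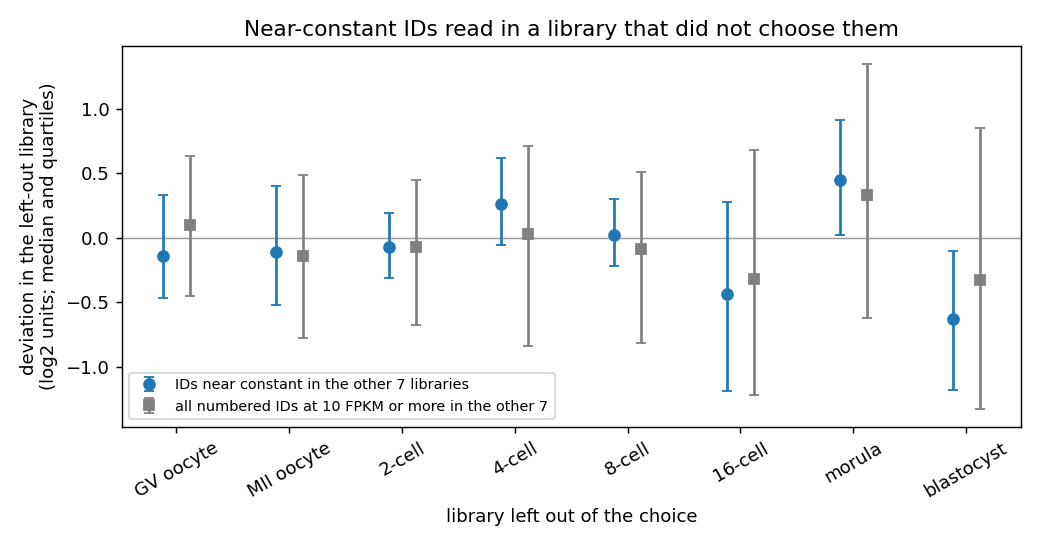
Deviation of a left-out library from the mean of the 8 libraries, as median (points) and quartiles (bars) over IDs, for IDs near constant in the other 7 libraries (blue) and for all numbered IDs with at least 10 FPKM in those 7 (grey). The blue bars are shorter in each library, and the blue medians reach -0.63 log2 units in the blastocyst, -0.44 in the 16-cell library and 0.45 in the morula. The grey medians there have the same signs, at -0.33, -0.32 and 0.33.

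IDs were also chosen on the earlier or the later libraries alone, which leaves 3 or 5 libraries to be read in place of 1. Of 4601 numbered IDs that stayed at 10 FPKM or more up to the 8-cell stage, 2647 (57.5%) were near constant over those 5, and the 203 are 7.67% of these, the IDs that stayed so over the 16-cell, morula and blastocyst libraries. The background was 5.5% of the 4601, a set that contains the chosen IDs. Of the 2647, 1143 were under 10 FPKM in at least 1 later library (43.2%). Of all 4601, 2688 stayed at 10 FPKM or more in every later library. The later mean of the 2647 differed from their earlier mean by a median of -1.28 log2 units (quartiles -2.61 and 0.14). Over all 4601 the median was similar, at -1.11 log2 units (quartiles -2.57 and 0.42), so the lower value is not particular to the chosen IDs. Both sets had a minimum of 10 FPKM in the earlier libraries and none in the later ones, which favours a lower later mean. In reverse, 1899 of 3828 IDs were near constant over the 3 later libraries and the 203 are 10.7% of these, against a background of 6.61%. There the earlier mean, which had no minimum, was the lower one. The median difference was -0.60 log2 units for the 1899 and -0.81 for all 3828. No decrease over the stages is therefore read from these medians.

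The near-constant IDs were then used as an internal reference. The offset of a library was the median over the 203 IDs of their deviation from their own mean over the 8 libraries. It was -0.14 log2 units in the GV oocyte, -0.04 in the MII oocyte, -0.06 in the 2-cell, 0.20 in the 4-cell, 0.04 in the 8-cell, -0.10 in the 16-cell, 0.28 in the morula and -0.30 in the blastocyst library. The span was 0.58 log2 units, and the corresponding folds ran from 0.814 in the blastocyst to 1.22 in the morula. The interquartile range over the 203 IDs within a library was 0.42 log2 units (2-cell) to 0.72 (16-cell). It covers only the middle of the IDs, yet was of the same order as the span from the lowest to the highest of the 8 offsets. These are unlike measures, and the full spread over single near-constant IDs was wider than the interquartile range. Both the offsets and the spread are bounded by the rule, which held each ID within 1.5 log2 units on the deposited scale.

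Median-of-ratios factors, which rest on all IDs above 0 in every library, gave other values. They were 0.09 log2 units for the GV oocyte, 0.02 for the MII oocyte, 0.14 for the 2-cell, 0.12 for the 4-cell, 0.03 for the 8-cell, -0.10 for the 16-cell, -0.09 for the morula and -0.20 for the blastocyst library. The signs were opposite to those of the near-constant IDs in the GV, MII, 2-cell and morula libraries. The FPKM sum gave 0.99 log2 units for the morula and 0.83 for the blastocyst, with -0.50 to -0.11 for the other libraries. For the blastocyst the near-constant IDs and the sum had opposite signs, and for the morula the near-constant IDs lay between the other 2 readings. IDs chosen without the library they were read in gave wider offsets of the same sign in the 3 later libraries. These were -0.44 in the 16-cell, 0.45 in the morula and -0.63 in the blastocyst library. All numbered IDs at 10 FPKM or more in the other 7 libraries had medians of the same sign there, at -0.32, 0.33 and -0.33. The signs in these 3 later libraries are thus not particular to near-constant IDs. No minimum held in the library left out, which favours negative medians in both sets. In the GV oocyte the signs differed, at -0.14 for the chosen IDs and 0.10 for all. They also differed in the 8-cell library, at 0.02 and -0.09, and were the same in the MII, 2-cell and 4-cell libraries.

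**Figure D4:**
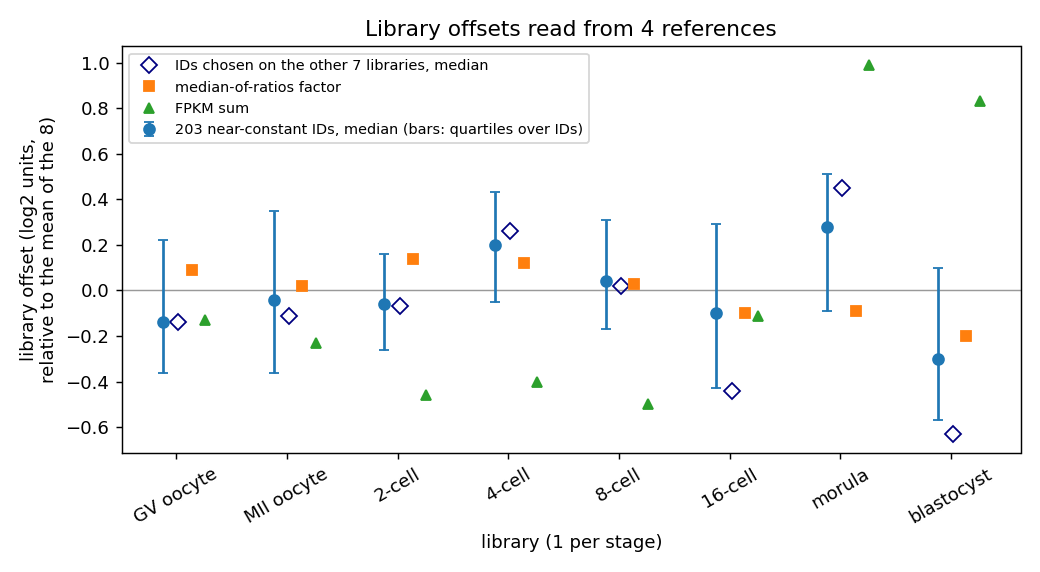
Library offsets in log2 units relative to the mean of the 8 libraries, read from the 203 near-constant IDs (blue circles, bars for quartiles over IDs), from IDs chosen on the other 7 libraries (open diamonds), from median-of-ratios factors (orange squares) and from the FPKM sum (green triangles). The near-constant IDs stand at 0.28 in the morula and -0.30 in the blastocyst, where the sum stands at 0.99 and 0.83.

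Which IDs were near constant depended on the scaling. After median-of-ratios scaling 218 IDs met the rule, and 167 were shared, 76.6% of that list and 82.3% of the 203. With libraries rescaled to the same sum 142 met it, of which 34 were shared (23.9% of that list and 16.7% of the 203), and the median range of the 203 IDs became 2.07 log2 units. Scaled by the offsets of the near-constant IDs themselves, 279 IDs met the rule and 172 were shared (61.6% and 84.7%). As deposited, after median-of-ratios scaling and scaled by their own offsets, 154 of the 203 (75.9%) met the rule each time, and 19 did so under the same sum as well. Of the IDs named above, gene9868 narrowed to 0.53 log2 units after median-of-ratios scaling and gene7686 widened to 0.76. The 2 most abundant had 1.34 (gene21379) and 1.58 log2 units (gene11618), so gene11618 passed the limit. So did gene21107 (1.72) and the IDs of greatest increase to the blastocyst, gene10765 (1.64) and gene25562 (1.67). The IDs of greatest decrease narrowed, to 1.18 (gene14990) and 1.17 log2 units (gene11924).

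Repeating the choice and the scaling did not settle at the starting IDs. Choosing near-constant IDs, scaling by them and choosing again was continued until the list no longer changed, which took 32 rounds. The final list held 315 IDs, and 104 of these were among the 203 (51.2%). The accumulated offsets had moved to 0.67 log2 units in the 4-cell, 0.44 in the 8-cell, -0.09 in the morula and -0.85 in the blastocyst library, a span of 1.52. Starting from the same-sum scaling ended at the same list of 315 IDs after 44 rounds, and starting from median-of-ratios scaling ended after 16 rounds at 321 IDs, 291 of them shared with the 315, with a span of 1.33. In these 8 libraries the rule therefore does not fix 1 scale by itself, and the list and the offsets depend on where the choice is stopped.

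The choice of reference altered the comparison of stages. An ID was counted as different when its log2(FPKM + 1) values were at least 2 apart and the larger of both was 10 FPKM or more; no near-constant ID can pass this as deposited. Between the GV oocyte and the blastocyst, scaling by the near-constant IDs gave 2313 numbered IDs higher in the blastocyst (27.2% of 8496 compared) and 2264 lower (26.6%), against 2057 higher (25.4% of 8086) and 2330 lower (28.8%) as deposited. IDs higher in the blastocyst were 50.5% of all that differed after scaling by the near-constant IDs, 46.9% as deposited, 53.6% after median-of-ratios scaling and 27.2% after rescaling to the same sum. The median difference of all compared IDs was 0.05 log2 units after scaling by the near-constant IDs, -0.18 as deposited, 0.26 after median-of-ratios scaling and -1.48 with the same sum.

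At the steps into and out of the morula the reference also mattered. Between the 16-cell embryo and the morula, scaling by the near-constant IDs gave 1030 IDs higher (14.6% of 7079) and 1386 lower (19.6%) in the morula. As deposited there were 1372 higher (19.1% of 7192) and 1105 lower (15.4%), so the direction of the balance turned. The offsets behind this depended on the limit. For the 24 IDs of range under 1 they were 0.05 log2 units in the morula and -0.02 in the 16-cell library. For the 540 of range under 2 they were 0.27 and -0.14. Counts scaled by these other lists were not made. IDs higher in the morula were 42.6% of those that differed after scaling by the near-constant IDs, 55.4% as deposited, 54.4% after median-of-ratios scaling and 22.8% with the same sum. The median difference was -0.17 log2 units after scaling by the near-constant IDs, 0.29 as deposited, 0.26 after median-of-ratios scaling and -1.01 with the same sum. Between the morula and the blastocyst, scaling by the near-constant IDs gave 1121 higher (16.4% of 6844) and 174 lower (2.54%) in the blastocyst, against 758 higher (11.2% of 6750) and 398 lower (5.9%) as deposited. The higher IDs were 86.6% of those that differed after scaling by the near-constant IDs, 65.6% as deposited, 71% after median-of-ratios scaling and 72.2% with the same sum. More IDs were higher than lower in the blastocyst at this step under all 4 scalings, although the median difference was 0.34 log2 units after scaling by the near-constant IDs and -0.32 as deposited.

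At earlier steps the balance also shifted. Between the 2-cell and the 4-cell embryo, scaling by the near-constant IDs gave 198 higher (2.81% of 7051) and 546 lower (7.74%) in the 4-cell embryo, against 276 higher (3.85% of 7173) and 395 lower (5.51%) as deposited. Lower IDs were the more numerous in the 4-cell embryo under all 4 scalings. Between the 8-cell and the 16-cell embryo, scaling by the near-constant IDs gave 1949 higher (25.2% of 7732) and 1709 lower (22.1%) in the 16-cell embryo, against 1811 higher (23.6% of 7689) and 1855 lower (24.1%) as deposited; the higher IDs were 53.3% of those that differed after scaling by the near-constant IDs, 49.4% as deposited and 39% with the same sum. For the 2-cell embryo against the MII oocyte, the higher IDs were 51.5% of those that differed after scaling by the near-constant IDs, 48.4% as deposited, 39.5% after median-of-ratios scaling and 67.3% with the same sum. The steps from GV to MII and from 4-cell to 8-cell kept more lower than higher IDs under all 4 scalings.

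**Figure D5:**
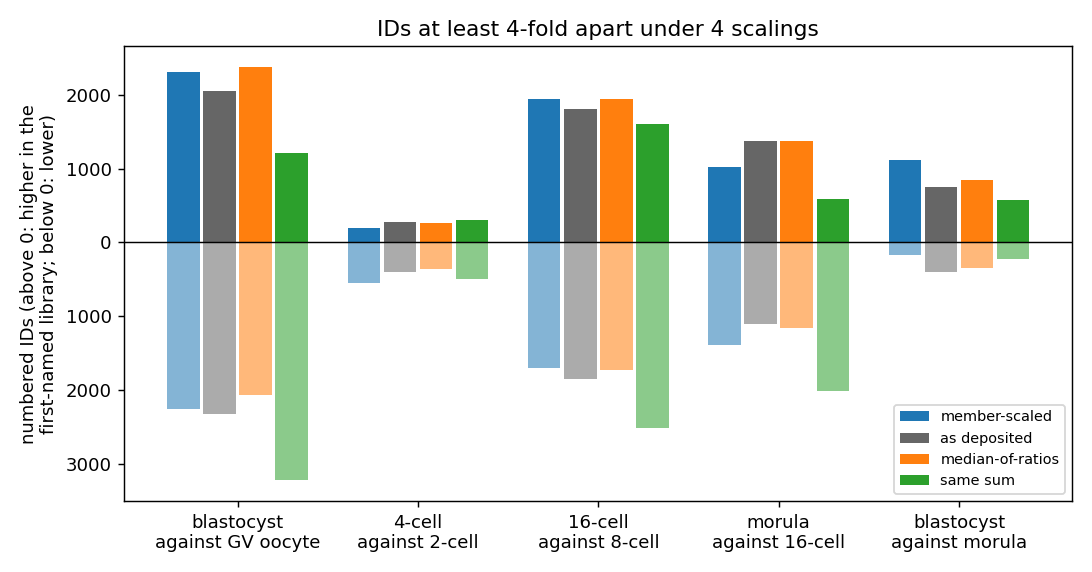
Number of numbered IDs at least 4-fold higher (bars above 0) or lower (paler bars below 0) in the first-named library of 5 pairs, with libraries scaled by the near-constant IDs (blue), as deposited (grey), by median of ratios (orange) and to the same sum (green). In the blastocyst against the morula, 174 IDs are lower after scaling by the near-constant IDs and 398 as deposited.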

How the data were processed

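The authors deposited 1 table of FPKM values, per the file's name, with 1 column for each of 8 libraries. Aligner, genome build and annotation were not given in the sources used here. An extraction protocol in the labels describes a different tissue and was left aside. Stages came from sample titles, and columns were matched through sample descriptions. Depth is unknown, so no counting error is given.

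Values were taken to log2(FPKM + 1) in Python 3.11.15 with pandas 2.3.3 and numpy 2.4.6. Folds of low IDs are understated on this scale. Median-of-ratios and sum factors were centred on the 8 libraries; the offsets printed are medians over IDs and were centred only when used for scaling. Median-of-ratios factors used IDs above 0 in every library, and the same-sum scaling divides by each column's sum. Named IDs are the 2 members of smallest range, of highest mean, just inside and just outside the limit, and of greatest increase and decrease between the GV oocyte and the blastocyst. The gene lists planned were not scored, since no ID matched a symbol. The members, lists and comparisons were chosen with earlier results of these data known. The choice was run on simulated data with known offsets and 200 planted constant IDs, whose noise was independent between IDs. The size rule was run on the GV library set against itself with 200 IDs raised by a known fold, without offsets. These runs check the code, and how well the offsets of the 8 libraries are read was not tested.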

Additional observations from a re-analysis of the deposited data

How the results depend on the processing

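Of 92 alternative values computed for 27 results, 75 stayed within 1.5 times the reported value and 17 moved further. No cause was tested, beyond the wider or narrower limits themselves. Some of the 75 could hardly move. No near-constant ID has a suffix after its number, so leaving such IDs out kept 203, and counting new-gene IDs too gave 205. The shares of the FPKM sum changed only in what they were divided by, as from 1.34% to 1.36% in the blastocyst. The tally compares sizes only, not which IDs were counted or which direction had more. It takes in the 142 IDs of the same sum, of which 34 were among the 203 (16.7%). It also takes in the 1030 higher and 1386 lower IDs in the morula after scaling by the near-constant IDs, where the balance turned. The 203 near-constant IDs became 112 with a minimum of 30 FPKM, 4701 with no minimum (2962 of them never over 1 FPKM), 24 with a range under 1, 540 with a range under 2 and 315 after repeated scaling by the near-constant IDs. Leaving out 1 library gave 218 (8-cell) to 415 (16-cell) IDs, with 318 without the morula and 381 without the blastocyst library. The span of the offsets, 0.58 log2 units, was 0.37 for IDs of range under 1, 1.08 for IDs chosen on the other 7 libraries and 1.52 after repeated scaling. With equal sums, 1209 IDs were higher in the blastocyst than at the GV stage, 235 were higher in the 2-cell than in the MII library, 596 higher and 2018 lower in the morula than in the 16-cell library, and 222 lower in the blastocyst than in the morula, where scaling by the near-constant IDs gave 174. The repeated scaling was chosen after seeing the data. No paired analysis was possible because each stage has 1 library.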
